A study of Homo sapiens with 6 samples.

Results

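The step from 1 ribosome to several on an mRNA was examined for 5-methylcytosine (m5C) by setting the monosome library against the light polysome library, whose RNA carried 2 to 5 ribosomes. A site was kept when it was listed in both libraries with at least 20 reads in each, which gave 105 sites in 104 genes out of 542 unique sites over the 6 gradient fractions of the study. These were 59.3% of the 177 sites listed for monosomes and 48.6% of the 216 sites listed for light polysomes. The RNA came from wildtype HEK293T cells, a line derived from human embryonic kidney, and no treatment separated the groups. Cycloheximide, which holds ribosomes on mRNA, was in the lysis and gradient buffers of every fraction, and poly(A) RNA was selected from each fraction before bisulfite conversion. Each fraction was a single library, so the tests below compare these libraries and cover counting error alone, and no spread between cultures could be measured.

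The small ribosomal subunit scans the 5′ UTR to a start codon, where the large subunit joins it. Further ribosomes load behind the first when initiation is frequent. Monosomes therefore hold mRNA with a single loaded ribosome, and polysomes hold mRNA in more active use. Most m5C in mRNA is placed by NSUN2, which modifies cytosines followed by G-rich sequence (Type I), and by NSUN6, which modifies cytosines followed by UCCA, often in a hairpin loop (Type II). Here every site without UCCA was counted as Type I, whether or not its sequence was G-rich, and no site was tied to an enzyme by measurement. The m5C level of a site is the percent of its reads that kept C after bisulfite conversion. Reads were not scaled between libraries, so fewer methylated molecules and more unmethylated molecules in a fraction cannot be told apart.

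The sequences below are those of the sites that differed between the libraries, shown so that the motif at each can be read beside its values. Each is 21 nt of spliced transcript in DNA letters, read from GRCh37, with the measured C and the next 4 bases in capitals. RPSA and its processed pseudogene RPSAP15 shared 1 sequence.
RPSA (chromosome 3, position 39450197, plus strand) and RPSAP15 (chromosome X, position 86958997, minus strand): gtgttatatcCTCCAggaata
C19orf70 (chromosome 19, position 5678604, minus strand): cccgcgagtaCTCCAaggagg
SLC25A6 (chromosome X, position 1510840, minus strand): ccgccgccatCTCCAagacgg
RPS2 (chromosome 16, position 2014563, minus strand): gatggggaacCGCGGtggctt
TMEM219 (chromosome 16, position 29979433, plus strand): agtgctgttcCAGGAatccta
ADCK4 (chromosome 19, position 41211272, minus strand): atgtacagttCGAGGggccgc
QARS (chromosome 3, position 49141833, minus strand): cctcccgactCAGGGataccc
NUDT3 (chromosome 6, position 34247926, minus strand): ttccttttctCGAGGtggatg
RPSA, RPSAP15, C19orf70 and SLC25A6 carried the Type II motif CTCCA on the transcript strand, and RPS2, TMEM219, ADCK4, QARS and NUDT3 were Type I sites of the G-rich kind, in which 2 or more of the 3 following bases are G.

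For contrast, the next sequences belong to deeply read sites that differed by little and to highly methylated Type II sites that were read as higher in light polysomes.
MT-RNR1 (chromosome MT, position 1488, plus strand): acacaccgccCGTCAccctcc
SLC25A39 (chromosome 17, position 42400897, minus strand): catcagccccCTCCAgcaaat
EIF4B (chromosome 12, position 53433438, plus strand): aggatcaagaCTCCAgatctg
NT5DC2 (chromosome 3, position 52561376, minus strand): tcagaaaactCGATGagaagg
PVRL2 (chromosome 19, position 45375183, plus strand): ccctctgcatCTCCAaagagg
FURIN (chromosome 15, position 91425541, plus strand): gaggccacctCTCCAagggct
The motif alone did not sort the sites, since CTCCA stood both at RPSA, which differed, and at PVRL2 and FURIN, whose intervals held 0 on fewer reads. CTCCA also stood at SLC25A39 and EIF4B, whose intervals held 0 as well. Both sites lay close above the lowest level at which sites were listed. A fall like that at RPSA would have taken SLC25A39 and EIF4B out of the comparison, so they cannot decide this.

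The joined sites held 71193 monosome reads and 69001 light polysome reads, with a median of 78 and 139 reads per site. The light polysome library was deeper at 77 sites and the monosome library at 28. RPSA alone took 21.5% and 18.9% of these reads, and MT-RNR1 took 16.1% and 15.98%. Depth set the precision of each difference, and the median half-width of its 95% interval fell from 18.5 percentage points at the 36 sites whose smaller coverage was 20 to 49 reads to 2.199 at the 13 sites with 500 or more.

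The sites past the threshold were more methylated in monosomes, with NUDT3 as the exception. The median level was 21.7% in monosomes and 20.6% in light polysomes, over ranges of 10.0 to 83.7% and 10.4 to 83.6%. The level was higher in monosomes at 65 sites and lower at 40. The median difference was 1.59 percentage points, with an order-statistic 95% interval of the median from 0.126 to 3.79. That interval, like those of the other medians below, takes sites as independent draws, though sites are not replicates of a condition. The single differences ran from -26.4 to 30.6 points. The C and T reads of each site were set in a Fisher's exact test (two-sided, Benjamini-Hochberg adjusted). In all, 9 of the 105 sites (8.57%) passed the threshold of 0.05 on the adjusted p, 8 higher in monosomes (7.62%) and 1 lower (0.952%). The count was 5 with Holm adjustment, 24 of 75 (18 higher, 6 lower) with large subunit and monosome reads summed against both polysome libraries, and 0 with coverage capped at 200 reads. Summed reads weight each library by its depth at a site. With copies of an identical window summed, such as RPSA and RPSAP15, 8 of 102 sites passed (7 higher, 1 lower). By Fisher's exact test over the 105 sites, 14 were higher and 2 lower at an unadjusted p under 0.05. Of the 96 sites that did not pass, 59 had an interval with a half-width (the mean of both arms) over 10 points, so a change of that size was not detectable there at this depth.

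**Figure D1:**
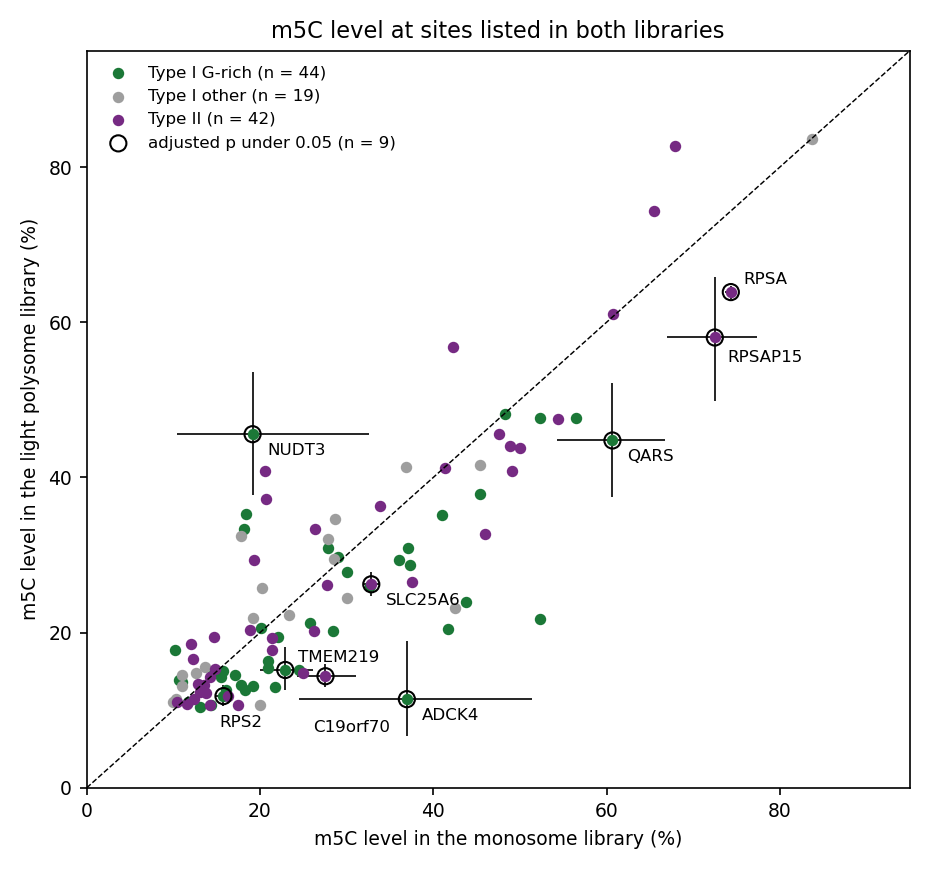
m5C level of the 105 joined sites in the monosome library (x axis, %) against the light polysome library (y axis, %), colored by motif, with the 9 sites past the threshold ringed and given 95% Wilson intervals in both directions. Of the ringed sites, 8 lie below the dashed line of equal levels and NUDT3 lies above it.

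The most deeply read of these sites was in a ribosomal protein gene. RPSA encodes a protein of the small ribosomal subunit that is also known as the laminin receptor, and its site was in coding exon 3 of 7. Its level was 62.9% in free RNA, 63.2% with the small subunit, 66.1% with the large subunit, 74.3% in monosomes (95% Wilson interval 73.65 to 75.03, 15321 reads), 63.9% in light polysomes (63.1 to 64.7, 13059 reads) and 55.2% in heavy polysomes. Monosomes were thus the highest of the 6 libraries for RPSA, and heavy polysomes the lowest. The monosome minus light polysome difference was 10.5 points (Newcombe 95% interval 9.38 to 11.5, Fisher's exact test, adjusted p = 6.32e-79).

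The pseudogene RPSAP15, whose 21 nt are identical to those of RPSA, gave 63.4% in free RNA, 64.8% with the small subunit, 64.6% with the large subunit, 72.5% of 280 reads in monosomes (67.0 to 77.4), 58.0% of 143 reads in light polysomes (49.8 to 65.8) and 45.5% in heavy polysomes. Its highest and lowest libraries were those of RPSA. The difference was 14.5 points (4.93 to 24.0, Fisher's exact test, adjusted p = 0.0357, and 0.297 with Holm adjustment). The sequence at RPSA matched 17 other places in the genome exactly, and reads from RPSA and its copies could not be told apart within this window. Summed over both positions, the level was 74.3% in monosomes and 63.8% in light polysomes, a difference of 10.5 points (9.42 to 11.6).

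RPS2, another protein of the small subunit, carried its site in coding exon 2 of 7. Its level was 15.1% in free RNA, 14.6% with the small subunit, 15.4% with the large subunit, 15.8% in monosomes (14.9 to 16.7, 5959 reads), 11.8% in light polysomes (10.5 to 13.3, 2131 reads) and 13.3% in heavy polysomes. The light and heavy polysome libraries were the lowest for RPS2, though the step was small at 3.97 points (2.27 to 5.58, Fisher's exact test, adjusted p = 0.000187). The window matched 10 other places exactly, and the pseudogene RPS2P5 gave 15.8% in monosomes and 15.0% in light polysomes, a difference of 0.757 points (-1.58 to 2.94). With RPS2, RPS2P5 and RPS2P55 summed, the levels were 15.7% and 13.0%, and the difference was 2.78 points (1.43 to 4.07).

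QARS encodes glutaminyl-tRNA synthetase, which charges tRNA with glutamine. Its site in coding exon 2 of 24 was methylated at 62.8% with the small subunit, 59.0% with the large subunit, 60.7% in monosomes (54.3 to 66.7, 234 reads), 44.8% in light polysomes (37.5 to 52.2, 172 reads) and 38.0% in heavy polysomes, and it was not listed in free RNA. The libraries up to the monosome lay above both polysome libraries. The monosome minus light polysome difference was 15.9 points (6.09 to 25.3, Fisher's exact test, adjusted p = 0.0233, and 0.174 with Holm adjustment).

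The level also fell at this step in 3 nuclear genes for mitochondrial proteins. C19orf70 encodes a subunit of the MICOS complex, which shapes the cristae of the inner membrane, and its site in the last of 4 exons lay 39 nt before the last coding base. Its level was 22.2% in free RNA, 26.6% with the small subunit, 27.5% with the large subunit, 27.6% in monosomes (24.3 to 31.1, 653 reads), 14.4% in light polysomes (13.0 to 15.9, 2148 reads) and 14.1% in heavy polysomes. Both polysome libraries lay below the other 4, and free RNA (20.5 to 24.1) lay below monosomes. The difference was 13.2 points between monosomes and light polysomes (9.55 to 17.0, Fisher's exact test, adjusted p = 5.44e-12).

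SLC25A6 encodes an ADP/ATP carrier of the inner mitochondrial membrane, and its site was in coding exon 1 of 4. The level was 32.0% in free RNA, 30.7% with the small subunit, 30.3% with the large subunit, 32.9% in monosomes (31.9 to 33.8, 9656 reads), 26.2% in light polysomes (24.8 to 27.8, 3320 reads) and 20.1% in heavy polysomes. All libraries up to the monosome lay above 30% and both polysome libraries lay below. The difference was 6.62 points (4.83 to 8.36, Fisher's exact test, adjusted p = 2.97e-11).

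ADCK4 is a kinase-like protein that takes part in coenzyme Q synthesis. Its site in coding exon 6 of 15 gave 18.0% with the small subunit, 21.7% with the large subunit, 37.0% of 46 reads in monosomes (24.5 to 51.4), 11.4% of 105 reads in light polysomes (6.66 to 18.9) and 12.5% in heavy polysomes, with no listing in free RNA. The monosome value was the highest listed for ADCK4, on few reads. Its interval overlapped those of the small subunit (9.77 to 30.8) and the large subunit (13.6 to 32.8), so their order cannot be read. The difference was 25.5 points (11.0 to 40.7, Fisher's exact test, adjusted p = 0.00964, and 0.0551 with Holm adjustment).

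TMEM219, a membrane protein known as a receptor for IGFBP3, carried its site in coding exon 4 of 6. Its level was 26.1% in free RNA, 27.3% with the small subunit, 24.5% with the large subunit, 22.9% in monosomes (20.0 to 26.1, 746 reads), 15.2% in light polysomes (12.6 to 18.2, 632 reads) and 16.1% in heavy polysomes. The difference between monosomes and light polysomes was 7.73 points (3.57 to 11.8, Fisher's exact test, adjusted p = 0.00602).

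NUDT3, a Nudix hydrolase of diphosphoinositol polyphosphates, was the exception in direction. Its site lay in the 3′ UTR, in the last of 5 exons, and gave 50.0% in free RNA, 24.0% with the small subunit, 29.2% with the large subunit, 19.1% of 47 reads in monosomes (10.4 to 32.5), 45.6% of 147 reads in light polysomes (37.7 to 53.6) and 42.2% in heavy polysomes. The free, small subunit and large subunit values of NUDT3 rested on 26, 25 and 24 reads. Their intervals of 32.1 to 67.9, 11.5 to 43.4 and 14.9 to 49.2 overlapped, so their order cannot be read. The monosome minus light polysome difference was -26.4 points (-38.3 to -10.9, Fisher's exact test, adjusted p = 0.0166, and 0.109 with Holm adjustment).

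**Figure D2:**
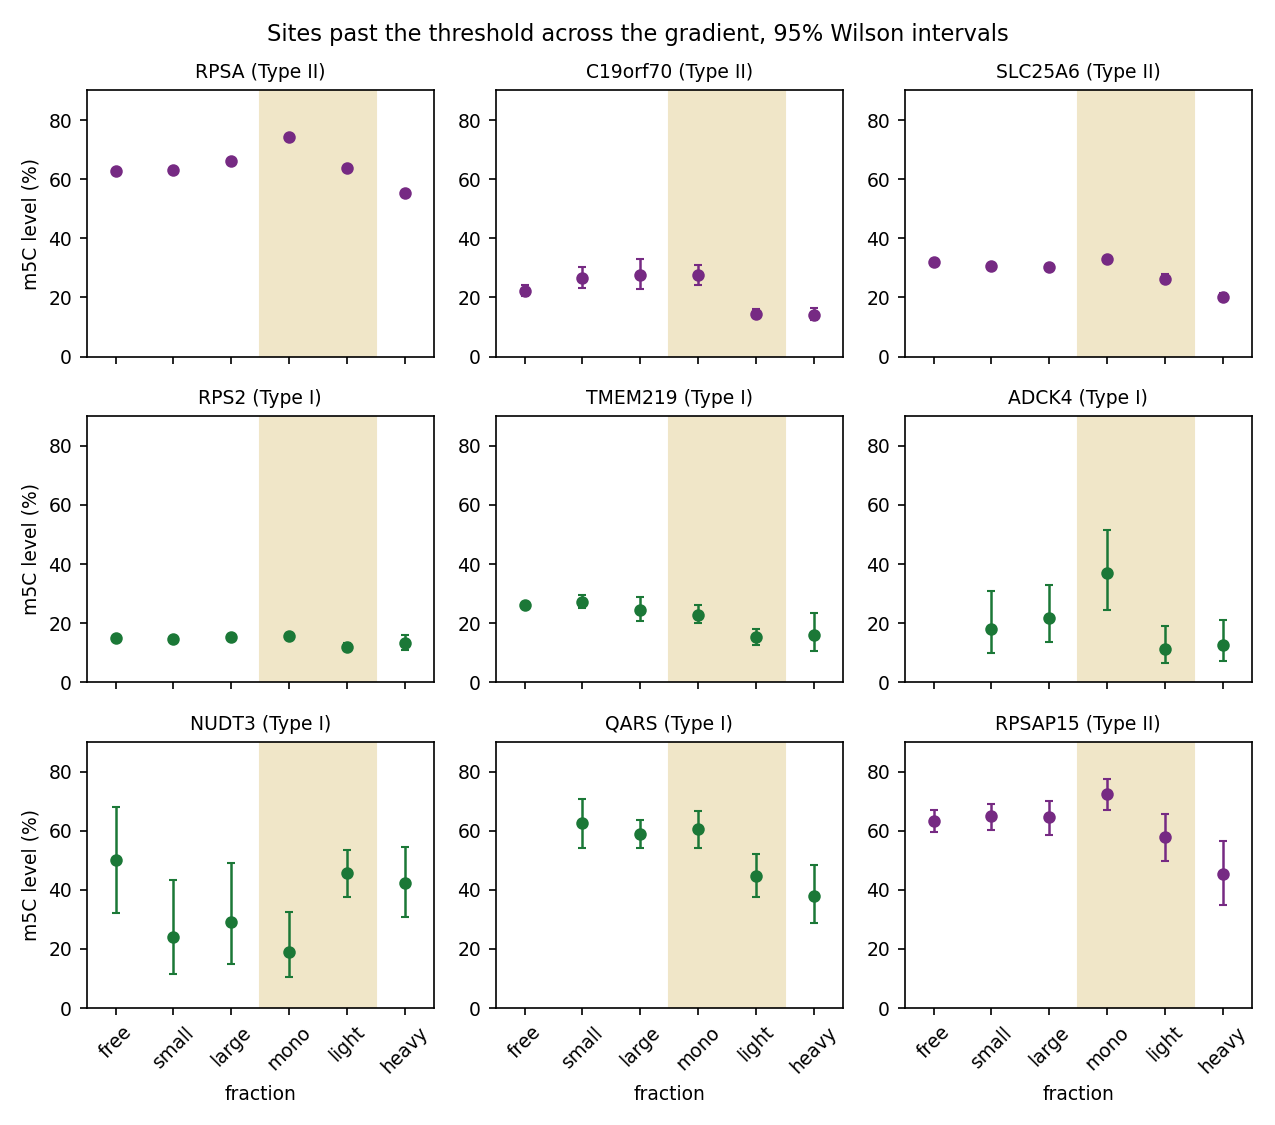
m5C level (y axis, %) of each of the 9 sites past the threshold over the fractions of the gradient from free RNA to heavy polysomes (x axis), with 95% Wilson intervals no point where a site was not listed, and the compared libraries shaded. RPSA peaks in monosomes at 74.3%, C19orf70 drops from 27.6% in monosomes to 14.4% in light polysomes, and NUDT3 rises from 19.1 to 45.6%.

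Whether these sites also moved at the neighboring steps was read from the large subunit library on one side and the heavy polysome library on the other. These comparisons share the monosome or the light polysome library with the main one, so the values are given side by side. Between the large subunit and monosomes 4.0% of 125 shared sites passed (0.8% lower and 3.2% higher in monosomes), and between light and heavy polysomes 3.79% of 132 passed, all higher in light polysomes. RPSA rose by 8.29 points from the large subunit to monosomes (Fisher's exact test, adjusted p = 1.13e-65) and was 8.70 points lower in heavy than in light polysomes (Fisher's exact test, adjusted p = 2.33e-26). SLC25A6 gave 2.59 and 6.17 points in the same order and directions (Fisher's exact test, adjusted p = 0.00326 and 4.51e-07). C19orf70 gave a large subunit minus monosome difference of -0.0737 points (-6.05 to 6.25) and a light minus heavy difference of 0.242 points (-2.36 to 2.72). The remaining 6 sites did not pass at either neighboring step. MT-RNR1, the mitochondrial 12S ribosomal RNA, which cytoplasmic ribosomes do not translate, also passed at both. Its large subunit minus monosome difference was -7.19 points (Fisher's exact test, adjusted p = 5.04e-61), and its light minus heavy polysome difference was 5.85 points (Fisher's exact test, adjusted p = 1.25e-12).

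The large subunit and heavy polysome libraries are not those of the main comparison, but they come from the same gradient fractionation, so they are no biological replicate of it. Between them, 12 of their 112 shared sites (10.7%) passed, 9 of them higher (8.04%) and 3 lower (2.68%) with the large subunit. All 8 sites called higher in monosomes were also higher with the large subunit than in heavy polysomes, where 62 of the 103 sites not called (60.2%) had that direction. Of the 8, 5 passed in this second pair. RPSA and RPSAP15 count as 2 sites in both numbers, though they share 1 sequence and are not separate cases. The large subunit minus heavy polysome differences were 10.9 points at RPSA (9.42 to 12.3), 13.3 at C19orf70 (8.07 to 19.1), 10.2 at SLC25A6 (8.45 to 11.9), 20.98 at QARS (9.69 to 31.3) and 19.1 at RPSAP15 (6.53 to 31.2). TMEM219 gave 8.404 points (0.00173 to 15.3), ADCK4 9.24 (-2.51 to 21.6) and RPS2 2.16 (-0.624 to 4.62), and none of these passed. NUDT3 gave -13.0 points (-31.8 to 9.96), which did not pass either. Among the 103 sites not called, 4 passed higher and 3 lower with the large subunit. PVRL2 was among those lower, at -30.7 points (-43.2 to -18.6, Fisher's exact test, adjusted p = 1.46e-06).

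Several large differences rested on few reads and did not pass. PIGQ, part of the enzyme that starts GPI anchor synthesis, read 52.4% of 21 reads in monosomes and 21.7% of 23 reads in light polysomes, a difference of 30.6 points with an interval from 2.23 to 53.4 (Fisher's exact test, adjusted p = 0.327). MLLT3, a reader of acylated histones, read 41.7% of 36 reads and 20.5% of 44. CAMK2N1, an inhibitor of CaM kinase II, read 43.8% of 48 reads and 23.9% of 71. SPG7, a protease of the inner mitochondrial membrane, read 42.5% of 40 reads and 23.2% of 69. In the other direction REEP6, an endoplasmic reticulum shaping protein, read 20.6% of 34 reads in monosomes and 40.8% of 147 in light polysomes, and TJAP1, a tight junction associated protein, read 18.4% of 38 and 35.3% of 51. Over all sites, 20 differed by 10 points or more, 12 higher and 8 lower in monosomes, and 56 differed by less than 5.

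**Figure D3:**
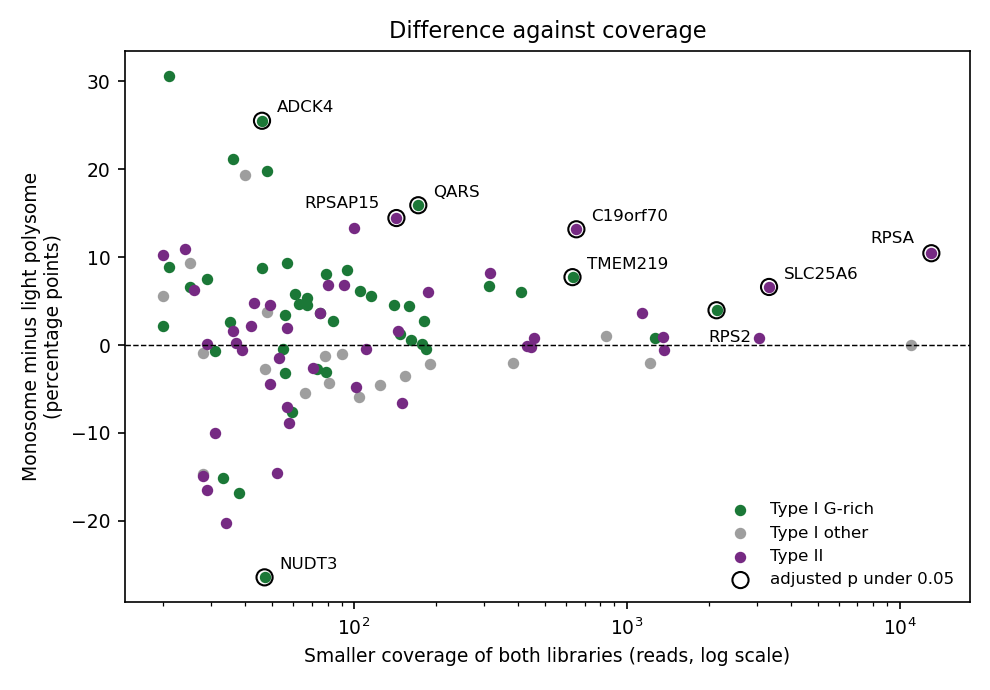
Monosome minus light polysome difference (y axis, percentage points) of each of the 105 sites against the smaller of its coverages in both libraries (x axis, reads, log scale), colored by motif, with sites past the threshold ringed. Differences spread from -26.4 to 30.6 points at the left, and at 500 or more reads 11 of 13 sites lie above 0.

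Some deeply read sites differed by little between these libraries. MT-RNR1, which moved at both neighboring steps, read 83.7% of 11494 reads in monosomes and 83.6% of 11026 in light polysomes, a difference of 0.0314 points (-0.935 to 0.998). EIF4B, a cofactor of the translation initiation helicase, read 12.4% of 3326 reads and 11.5% of 1361, with an interval of the difference from -1.20 to 2.86. NME1-NME2, a readthrough of nucleoside diphosphate kinase genes, read 11.6% of 3351 reads and 10.8% of 3053 (-0.781 to 2.31). For MT-RNR1, a mitochondrial ribosomal RNA and not an mRNA, a fall of the size seen at RPSA or C19orf70 lies outside the interval. EIF4B and NME1-NME2 stood close above the lowest level at which sites were listed. A fall of that size would have taken them out of the comparison, so their intervals cannot decide whether such falls occur.

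SLC25A39, a mitochondrial carrier, read 10.5% of 1768 reads and 11.1% of 1364 (-2.83 to 1.56), and NT5DC2 read 13.6% of 1219 reads and 15.6% of 2955 (-4.24 to 0.417). These were the only sites of the 13 with 500 or more reads in both libraries whose level was lower in monosomes. PABPC1, the cytoplasmic poly(A)-binding protein, read 21.4% of 2894 reads and 17.7% of 1139, a difference of 3.69 points (0.945 to 6.30) that did not pass (Fisher's exact test, adjusted p = 0.0962). At this depth 5 of the 13 sites passed (38.5%), against 2 of the 36 sites with 20 to 49 reads (5.56%).

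Of the 4 sites with the highest mean level, MT-RNR1, PVRL2, FURIN and RPSA, RPSA alone passed. PVRL2, the adhesion protein nectin-2, read 67.9% of 28 reads in monosomes and 82.7% of 81 in light polysomes, a difference of -14.9 points (-34.6 to 2.32). FURIN, a proprotein convertase, read 65.5% of 58 reads and 74.4% of 164, a difference of -8.87 points (-23.1 to 4.20). TRAF7, an E3 ubiquitin ligase, was the gene with a joined site of each type. Its Type I site read 19.2% of 495 reads and 13.2% of 410 (difference 6.02 points, 1.17 to 10.7), and its Type II site read 49.1% of 369 reads and 40.8% of 316 (8.23 points, 0.754 to 15.6). Both TRAF7 sites were higher in monosomes and neither passed (Fisher's exact test, adjusted p = 0.145 and 0.236).

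The sites were next grouped by motif. Type I sites were higher in monosomes at 40 of 63, with a median difference of 2.71 points (0.0314 to 4.55), and Type II sites at 25 of 42, with a median of 0.853 points (-0.472 to 3.69). The shares that passed were 7.94% and 9.52%, beside 8.57% over all sites. Within Type I, the 44 G-rich sites were higher in monosomes at 34, with a median of 4.52 points (2.60 to 6.02), and the other 19 sites were higher at 6 and lower at 13, with a median of -1.98 points (-4.28 to 1.04). Of the other Type I sites none passed, and they included MT-RNR1, NT5DC2, NDUFB7 and SPG7. The difference between these site groups was not tested, since sites are not replicates of a condition.

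**Figure D4:**
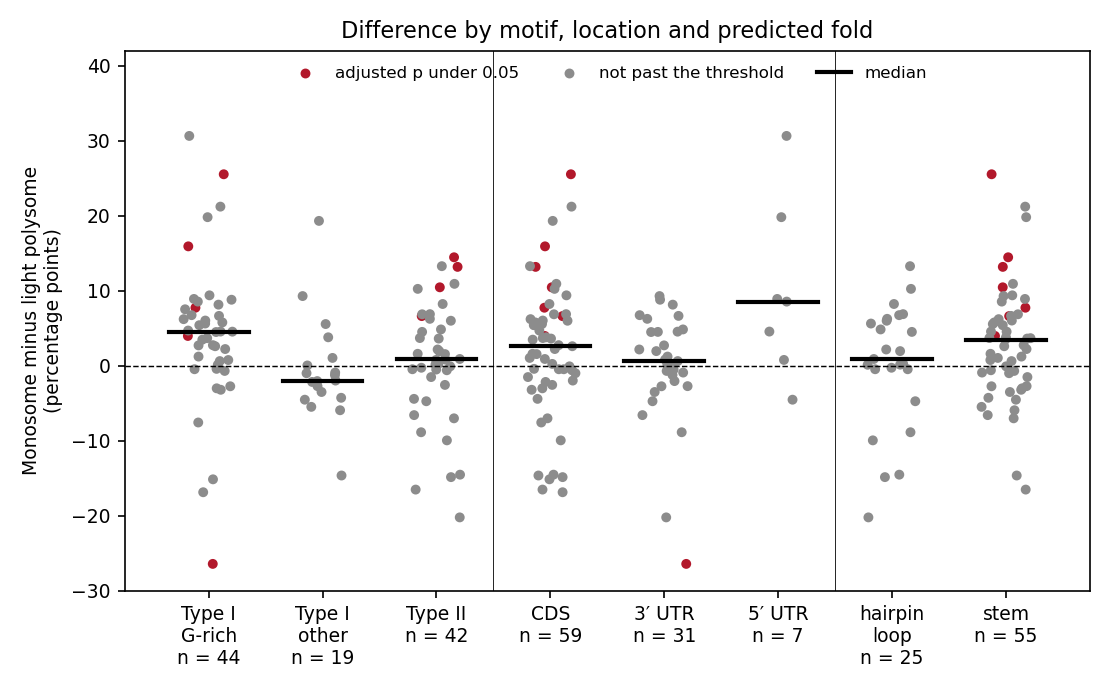
Monosome minus light polysome difference (y axis, percentage points) of single sites grouped by motif, by location in the transcript and by predicted fold (x axis), with group medians as bars and sites past the threshold in red. The median bar is at 4.52 points for G-rich Type I sites, at -1.98 for other Type I sites and at 0.853 for Type II sites.

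By location, coding sequence held 59 sites, 3′ UTRs held 31, 5′ UTRs held 7 and exons of noncoding genes held 6, while 2 lay outside the annotated genes. Coding sites were higher in monosomes at 36 and lower at 23 (median 2.60 points, -0.271 to 5.40), and 7 passed (11.9%, beside 8.57% over all sites), all of them higher. Sites in 3′ UTRs were higher at 18 and lower at 13 (median 0.617 points, -1.24 to 4.49), and NUDT3 alone passed. Of the 7 sites in 5′ UTRs, where the small subunit scans, 6 were higher in monosomes, namely PIGQ, CAMK2N1, APBA2 (56.5 and 47.6%), GNAS (37.3 and 28.7%), DESI1 (17.9 and 13.3%) and NME1-NME2. RABL6 was lower (36.8 and 41.3%), and none of the 7 passed.

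The fold of 101 nt around each site was predicted with RNAfold. The C was in a hairpin loop at 21 of 42 Type II sites and at 4 of 63 Type I sites. None of these 25 sites passed the threshold, beside 8.57% over all sites, a count too small to set loop sites apart. Of the 9 sites that passed, 5 were on the 5′ side of a stem (55.6%), beside 29.2% of the 96 that did not pass. Another 2 were on the 3′ side (22.2%, beside 20.8%) and 2 in other unpaired stretches (22.2%, beside 24.0%). The Type II sites among them, RPSA, RPSAP15, C19orf70 and SLC25A6, were all placed on the 5′ side of a stem, where 6 of the 38 other Type II sites were. RPSA and RPSAP15 share their sequence around the site and are not separate cases, and this contrast was not tested. Hairpin loop sites had a median difference of 0.895 points (-0.471 to 5.62) and paired sites 3.47 points (0.617 to 5.40). Loop sites had a median of 80 reads in monosomes and 164 in light polysomes, against 79 and 112 at paired sites.

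By function of the gene, sites in nuclear genes for mitochondrial proteins stood higher in monosomes at 10 of 12, with a median difference of 6.01 points (0.810 to 13.3) beside 1.59 over all sites, and 3 passed (25.0%, beside 8.57% over all sites). This gene list and those below were written with earlier results of these data known. With at least 50 reads in both libraries, 7 of 9 sites were higher (median 5.40 points, -0.607 to 13.2). At mean levels of 20% or more, all 8 sites were higher (median 10.7 points, 1.04 to 25.5). The list as written left out CS, the citrate synthase gene, which read 11.0% in monosomes and 14.5% in light polysomes. With CS, added after its values were seen, 10 of 13 sites were higher, the median was 5.40 points (-0.607 to 13.3) and 23.1% passed. Besides C19orf70, SLC25A6 and ADCK4, the levels were 46.0 and 32.7% at ATP5SL, 28.4 and 20.3% at the mitochondrial ribosomal protein MRPS25, 20.9 and 15.5% at SCO1, a copper chaperone of cytochrome oxidase, and 48.8 and 44.0% at TIMM50, part of the inner membrane import machinery. The complex I subunit NDUFB7 gave 23.3 and 22.3%, and PET100, a cytochrome oxidase assembly factor, gave 13.1 and 12.3%. SLC25A39 and the tRNA-processing enzyme ELAC2 (10.7 and 13.9%) were lower in monosomes.

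Sites in genes of translation and the ribosome were higher in monosomes at 5 of 6, with a median of 3.83 points (-2.05 to 15.9), and 3 passed (50.0%, beside 8.57% over all sites), namely RPSA, RPS2 and QARS. PABPC1 and EIF4B were higher without passing, and EIF2S3, a subunit of the factor that delivers initiator tRNA, was lower (11.0 and 13.1%). These sites were also the deepest, with a median of 3110 reads in monosomes and 1250 in light polysomes, and the part of depth in their count was not tested. The 51 sites in genes of no list had a median of 0.770 points (-0.472 to 3.47), and 3 of them passed (5.88%).

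**Figure D5:**
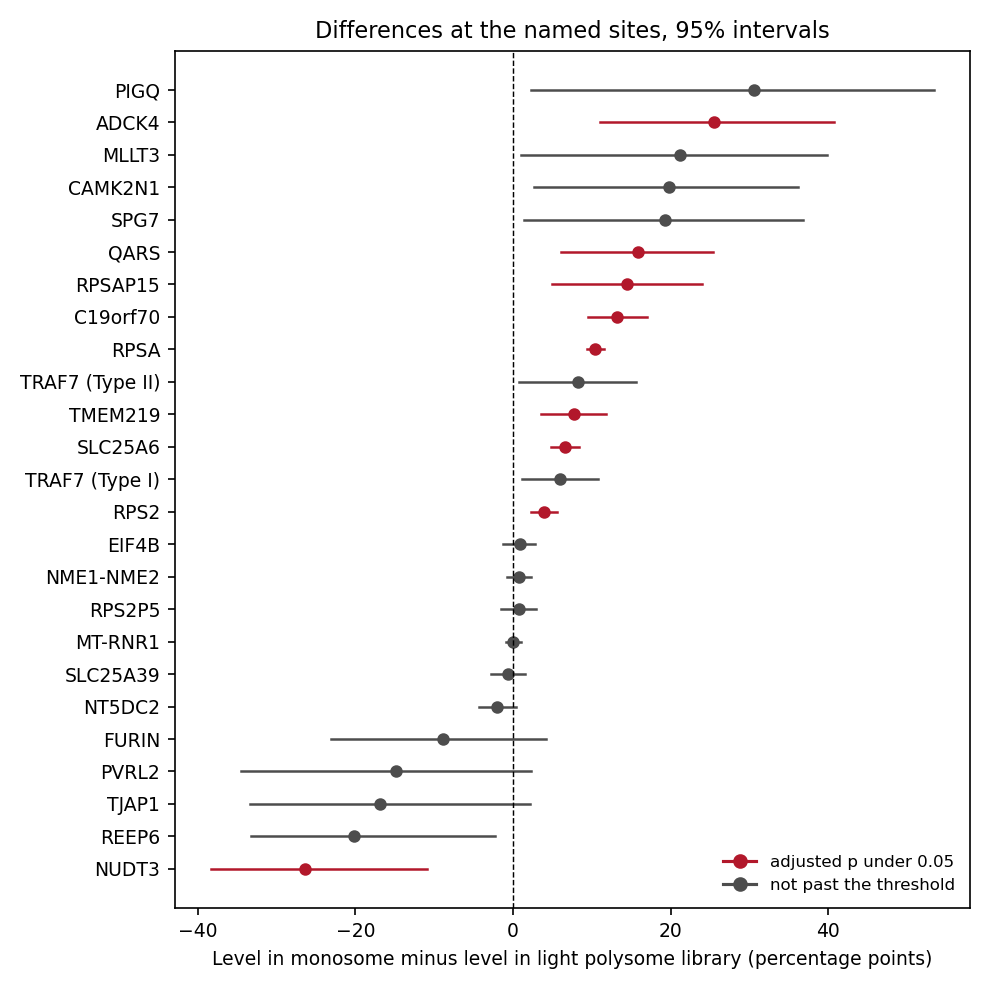
Monosome minus light polysome difference (x axis, percentage points) with its 95% Newcombe interval for each site named by the rule, with sites past the threshold marked. The intervals of the sites past the threshold exclude 0, as do those of PIGQ, MLLT3, CAMK2N1, SPG7, REEP6 and both TRAF7 sites, and that of MT-RNR1 runs from -0.935 to 0.998.

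Sites listed in a single library of the pair could not be compared. The lists do not tell apart low coverage, a level below the listing minimum of 10% and removal by the authors' other filters. There were 72 such sites in monosomes, with a median level of 13.4% and 61 of them under 20% (84.7%), and 111 in light polysomes, with a median of 16.7% and 71 under 20% (64.0%). The most deeply read of the monosome sites were in RPS3, a small subunit protein (11.0% of 45532 reads), RPS29, another (16.1% of 26073), SLC25A5, an ADP/ATP carrier like SLC25A6 (10.5% of 4435), and the pseudogene RPS3P6 (11.2% of 2556). RPS3, RPS29 and SLC25A5 were also listed for free RNA and for both subunit libraries, and in neither polysome library. The most deeply read of the light polysome sites were in FBRSL1 (11.0% of 383 reads), ATXN7L3B (13.8% of 254), the histone gene H3F3B (24.3% of 235) and TIPIN, a replication fork protein (11.4% of 193). FBRSL1 was also listed for the large subunit and heavy polysomes, ATXN7L3B for heavy polysomes, TIPIN for free RNA, and H3F3B for all 4 remaining libraries.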

How the data were processed

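The study converted poly(A) RNA of 6 sucrose gradient fractions with bisulfite and sequenced 1 library per fraction. Per the submitters' processing notes, reads were trimmed with cutadapt 1.13 and Trimmomatic 0.36 and mapped with HISAT2 2.10 and Bowtie2 2.2.9 to GRCh37, and SAMtools was used. The deposited coverage is the count of reads that show C or T. The deposited m5C level is a fraction, C reads over that coverage, printed here as a percent. The p-value deposited by the authors, from a binomial test against the conversion of the gene, was used solely to describe the lists. The authors discarded reads rich in unconverted C, then sites where few reads survived that step and genes that resist conversion. Whether counts precede the read filter is not given in the sources used here. A list holds called sites alone, with levels from 10% and at least 20 reads, so a site that fell under 10% leaves the comparison.

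C reads were level times coverage, whole at every listing within a tolerance of 1e-06. Sites were placed in GENCODE 44 lifted to GRCh37 (541 of 542 sites), and all 105 joined sites carried C on the listed strand. Groups came from the sample descriptions. Fractions at a site were compared by Fisher's exact test with Benjamini-Hochberg adjustment over all joined sites and a threshold of 0.05, with Wilson intervals of levels and Newcombe intervals of differences at 95%. Reads have no molecular identifiers, so the intervals of levels and differences cover counting error only. Intervals of medians are order-statistic intervals that take sites as independent draws. Exact matches of 21-nt windows were counted over the genome, and 101 nt were folded with RNAfold 2.7.2. The test and the intervals of differences were run on simulated independent reads at the observed coverages, and intervals of medians on simulated normal values. The simulation held no duplicate reads, no variation between libraries and no listing minimum, so it does not cover these limits. Named sites were all past the threshold, the 6 largest differences and 6 narrowest intervals not past it, the 4 highest levels, genes with 2 joined sites and the 4 deepest sites of each single-library list. Members of gene lists, motif groups and locations are named as examples. The members, the gene lists and the tests were chosen with earlier results of these data known. Alternatives varied the coverage and level minimum, the test, the adjustment and the sites included. Python 3.11.15 was used with pandas 2.3.3, scipy 1.17.1, numpy 2.4.6 and matplotlib 3.10.9.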

Additional observations from a re-analysis of the deposited data

Results flagged for a closer look

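The most deeply read site listed in a single library of the pair was flagged on either side, because it carried signal outside the joined comparison and above the limit that a count of 0 allows, which the listing rule fixes, since every listed site had a level of at least 10% and at least 5 C reads. In monosomes this was the RPS3 site on chromosome 11 at position 75115721, with 11.0% of 45532 reads (95% Wilson interval 10.7 to 11.3), where 0 C reads would allow up to 0.00659%. RPS3 read 11.1% in free RNA, 11.1% with the small subunit and 10.9% with the large subunit. In light polysomes it was the FBRSL1 site on chromosome 12 at position 133084927, with 11.0% of 383 reads (8.22 to 14.5), where 0 C reads would allow up to 0.783%. FBRSL1 read 10.3% with the large subunit and 10.4% in heavy polysomes. Both levels stand close above the listing minimum of 10%, and the absence of either site from the other list was not tested.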

How the results depend on the processing

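Of 36 alternatives for the counts and medians over sites, 32 stayed within 1.5 times the count or within the interval of the median, and none turned the direction. The interval of the median over all sites came to hold 0 at 50 or more reads (-0.271 to 3.69) and at mean levels of 20% or more (-0.271 to 6.21). It stayed above 0 at 100 or more reads (0.0314 to 4.55) and in the other selections of sites. For Type I sites it held 0 at 50 or more reads (-0.471 to 4.49) and at mean levels of 20% or more (-0.697 to 6.64). The 9 sites past the threshold became 5 with Holm adjustment, 24 of 75 (18 higher, 6 lower) with large subunit and monosome reads summed against both polysome libraries, and 0 with coverage capped at 200 reads. The cap leaves fewer reads, and by Fisher's exact test 9 sites kept an unadjusted p under 0.05 and the smallest adjusted p was 0.0579. The median difference of 1.59 points became a mean of 4.09 when sites were weighted by the smaller coverage, and 2.61 without RPSA and MT-RNR1, an alternative chosen after seeing the data. Without RPSA, also chosen after seeing the data, 8 sites passed. With copies of an identical window summed, chosen after seeing the data as well, 8 of 102 sites passed (7 higher, 1 lower). MT-RNR1 changed sign to -4.10 points in the summed libraries (Fisher's exact test, adjusted p = 1.10e-25). Its sums joined 37555 large subunit reads (76.5%) to 11494 monosome reads, and 11026 light polysome reads to 3407 heavy polysome reads (77.8%). Its large subunit minus heavy polysome difference alone was -1.31 points (-2.75 to 0.175). The summed value thus depends on how reads weight each library, a limit that the 24 of 75 share. Why its levels differed between libraries was not tested. PVRL2 at -26.4, FURIN at -11.9 and the Type II site of TRAF7 at 9.39 points passed in the summed libraries. NUDT3 and ADCK4 had fewer than 50 monosome reads and left the comparison at a minimum of 50, where 7 of 69 sites passed, and at 100 reads 8 of 41 passed. ADCK4, NUDT3, QARS and RPSAP15 did not pass with Holm adjustment, and RPS2 did not reach a difference of 5 points. No paired analysis was possible because each fraction was a single library.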

Other observations

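Among sites listed in a single library of the pair, CHCHD10, a mitochondrial protein gene chosen here after its values were seen, stood apart in its levels. Its coding site read 47.6% in free RNA, 55.2% with the small subunit, 51.1% with the large subunit and 54.5% of 246 reads in monosomes (95% Wilson interval 48.2 to 60.6). It was not listed in light polysomes and read 11.6% in heavy polysomes.

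The gene lists not described above held no site past the threshold. Secretory pathway and cell surface genes were higher in monosomes at 9 of 15 sites, with a median difference of 0.239 points (-8.87 to 6.86). They held some of the highest levels of the joined sites, such as 54.3 and 47.5% at the lysosomal protein PLD3 and 52.4 and 47.7% at GPR137, and opposite values at LEPRE1, a collagen prolyl hydroxylase (18.2 and 33.3%), and CTSD, a lysosomal protease (37.5 and 26.6%). Signalling genes were split at 5 higher and 5 lower. The kinase MAPK3 read 42.3% of 52 reads in monosomes and 56.8% of 234 in light polysomes, while RPS6KB2, a kinase of ribosomal protein S6, read 60.8% of 497 reads and 61.0% of 444. Genes of nuclear proteins were higher at 6 of 11 sites, with a median of 1.95 points (-4.42 to 10.2).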
